A study of Mus musculus with 33 samples.

Results

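Cardiomyocytes of mice that lack Ptpmt1 were compared with those of controls in the FST mouse line. The comparison was chosen by the genotype in the sample labels and takes 6 of the 33 libraries of the series, 3 Ptpmt1 knockouts and 3 controls, with 13896 of 32245 listed genes passing a filter on low values. RNA was sequenced from cardiomyocytes, the contractile cells of the heart, after removal of ribosomal RNA, and nuclear RNA is the molecule named in the labels. FST is the name used in the sample titles for a line that joins a cardiomyocyte-specific Ptpmt1 knockout to an Eif2a mutation, so its other groups are an Eif2a mutant and a double mutant, 3 libraries each. The knockout of the comparison carries the Ptpmt1 deletion without the Eif2a mutation, and the controls are labelled only as control. The sources used here name neither the allele of the Eif2a mutation, the Cre driver, what the controls carry, the strain nor the age. A second line, PHT, which joins the same knockout to a knockout of Hri, gave 2 controls and 3 Ptpmt1 knockouts for a side-by-side reading. Each library has its own number in its title, but nothing in the labels says that these are separate animals. The p-values thus measure the spread between samples, which may be technical. Sex, given below, sets control 1 apart from controls 2 and 3.

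Ptpmt1 is a phosphatase bound to the inner membrane of mitochondria. It makes phosphatidylglycerol, the precursor of cardiolipin, the lipid in which the respiratory chain complexes and the cristae are embedded. Mitochondrial stress can reach the nucleus through the integrated stress response (ISR), in which kinases such as Hri, Gcn2 and Perk phosphorylate the alpha subunit of the translation initiation factor eIF2. Most translation then slows, while that of the transcription factor Atf4 rises, and Atf4 switches on genes for amino acid uptake and synthesis, one-carbon metabolism and tRNA charging. The gene symbol of the alpha subunit is Eif2s1. The label Eif2a is read here as this subunit, which the labels do not state, and Eif2a is also the symbol of a separate initiation factor.

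Levels are normalized counts, the authors' gene values scaled for library depth but not for gene length, so genes are compared between libraries and not with each other. Differences are log2 fold changes of value + 1, knockout minus control, from limma, and a gene is called where its Benjamini-Hochberg adjusted p over all genes tested was under 0.05. Values after ± are standard errors, with 3 libraries in each group. Control libraries held 9857116, 9808006 and 11277025 reads in genes, and knockout libraries 10194954, 8331543 and 12583868. Control replicate 3 and knockout replicate 3 stood apart from the other replicates of their groups. Between replicates 1 and 2 the chi-square per degree of freedom of the read counts was 3.69 in controls and 6.88 in knockouts, against 14.9 to 22.3 for pairs with replicate 3. All 3 knockouts and control 1 expressed Y-linked genes, whereas controls 2 and 3 expressed Xist, so sex differed in part between the groups. Summed cardiomyocyte markers made up 6.45% to 7.35% of the signal in controls and 5.99% to 7.61% in knockouts. All 10 lymphocyte markers were below 10 in all 6 libraries, with, among others, Cd3e, Cd3d, Cd3g, Ms4a1 and Trbc2 at 0.

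Ptpmt1 itself fell to 21.8% of its control level. It was 158, 156 and 175 in the controls against 40.6, 31.3 and 34.7 in the knockouts, a log2 fold change of -2.17 ± 0.17 (adjusted p = 1.12e-05). The groups did not overlap, and the 3 knockouts lay within a narrow range. The Ptpmt1 gene (chr2:90908716-90918258 in mm10, minus strand) overlaps Kbtbd4 (chr2:90904740-90911626, plus strand), and without a stated strand setting of the counting, reads of the shared stretch cannot be told apart. Kbtbd4 did not pass the test (0.06, adjusted p = 0.912). No other member of the list for cardiolipin synthesis and remodelling was called among 17 tested, and the list's median log2 fold change was -0.06, beside -0.01 over all genes tested. Crls1, the cardiolipin synthase, had a log2 fold change of 0.48 (adjusted p = 0.375). Because each library is a bulk sample, fewer cells of a type and less RNA per cell cannot be told apart in this and the later results.

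Across all genes, 45 rose and 25 fell in the knockout, which is 0.504% of the genes tested, with 0.324% higher and 0.18% lower. Of the 45, 21 differed by at least 2-fold, and of the 25, 3 did. Groups did not overlap for any of the 70. These genes were called on the same libraries, so the separation is no independent evidence for them. For comparison, all knockouts lay above all controls in 9.61% of the genes tested and below them in 9.48%. Many of the rises were in genes of the ISR. Of the 45, 25 belonged to 6 lists of ISR factors, amino acid enzymes, amino acid transporters, glutathione genes and tRNA synthetases with 122 tested members, and no member of these lists was called lower. These lists were drawn up with earlier results of these data known, so the count describes the members and is not independent evidence of their direction. The number of calls depended on single libraries. It was 25, 21 and 34 without control 1, 2 and 3, 44 and 36 without knockout 1 and 2, and 857 without knockout 3.

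Of 16 tested members of the list of ISR factors, 4 rose at the RNA level. Atf4, its central transcription factor, was 708, 728 and 727 in the controls against 1216, 1285 and 1809 in the knockouts (0.97 ± 0.13, adjusted p = 0.00285). Trib3, a pseudokinase that is induced by Atf4 and feeds back on it, went from 14.8, 15 and 13.2 to 181, 160.1 and 457 (3.96 ± 0.34, adjusted p = 2.51e-05). Atf5, a related transcription factor of mitochondrial stress, was 102, 101 and 101 in the controls against 260.1, 234 and 724 in the knockouts (1.79 ± 0.31, adjusted p = 0.0157). All 3 genes were separated between the groups and highest in knockout 3. Stc2, a secreted glycoprotein induced by ER and oxidative stress, went from 72.4, 83.9 and 54.4 to 171, 157 and 356 (1.60 ± 0.33, adjusted p = 0.0462). The other 12 members were not called, 15 of the 16 had a log2 fold change above 0, and the median was 0.68. Ddit3, the transcription factor Chop, was 56.8, 65.7 and 91.9 in the controls against 108, 157 and 204 in the knockouts without overlap, yet its test gave 1.10 ± 0.40 with adjusted p = 0.243. Atf3 was at 0.09 (adjusted p = 0.921), and its sign turned without control 3 (-0.13) or knockout 3 (-0.09). Among secreted signals of mitochondrial stress, Fgf21 was listed at 0 in all 6 libraries. Gdf15 was 1.65, 0 and 2.21 in the controls against 5.57, 5.68 and 44.8 in the knockouts and was too low to be tested. When 1 library was left out, Atf5 lost the call without control 1, 2 or 3, and Stc2 without control 1, 2 or 3 or knockout 1 or 2.

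Upstream, a list of eIF2 kinases, phosphatases and related genes gave 0 calls by limma among 17 tested, with a median of -0.02. Its only eIF2 subunit was Eif2s1, beside the Eif2b genes and other factors. Eif2s1, the gene of the subunit that is phosphorylated, had 0.20 (adjusted p = 0.613). The gene with the symbol Eif2a, a separate initiation factor, was 569, 557 and 564 in the controls against 718, 748 and 574 in the knockouts (0.26, adjusted p = 0.248), and passed the test when knockout 3 was left out (0.38, adjusted p = 0.016). Eif2s2, the beta subunit of eIF2, which was not on the list, rose from 803, 822 and 834 to 1257, 1449 and 1272 (0.69 ± 0.08, adjusted p = 0.0007).

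Enzymes that make asparagine and feed the one-carbon pool rose next to these regulators. Asns, the asparagine synthetase, was 211, 224 and 259.5 in the controls against 976, 1187 and 1452 in the knockouts (2.36 ± 0.15, adjusted p = 1.56e-06). Mthfd2, the mitochondrial enzyme that oxidizes methylene tetrahydrofolate, went from 229, 245 and 287 to 783, 813 and 1274 (1.88 ± 0.17, adjusted p = 5.35e-05). The lowest knockout was above the highest control by more than the range of the controls for both genes. Further called steps of the serine and folate routes were Phgdh, the first enzyme of serine synthesis (1.32), Psat1, its transaminase (1.06), and Aldh1l2, a mitochondrial formyl tetrahydrofolate dehydrogenase (1.42). Thus 4 of 22 tested serine and one-carbon enzymes rose, and the median of the list was 0.14. Shmt2, the mitochondrial serine hydroxymethyltransferase, was called without knockout 3 (0.34, adjusted p = 0.0358). In the list of asparagine, alanine, proline and glutamate enzymes 4 of 18 rose, with a median of 0.06. Besides Asns they were Gpt2, the mitochondrial alanine transaminase (1.53), Bcat1, the cytosolic transaminase of branched-chain amino acids (1.43), and Aldh18a1, which starts proline synthesis (0.77). Pck2, the mitochondrial phosphoenolpyruvate carboxykinase and on none of the lists, rose by 0.92. Phgdh lost the call without control 1 or 2, Aldh1l2 without control 1, 2 or 3 or knockout 1, and Bcat1 without control 1 or 2 or knockout 2.

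Amino acid transporters showed some of the largest rises. Slc7a3, a carrier of cationic amino acids, was 13.2, 4.99 and 6.62 in the controls against 192, 190.4 and 362 in the knockouts (4.78 ± 0.79, adjusted p = 0.0109). Slc7a11, the cystine and glutamate exchanger, was 9.05, 7.48 and 5.15 in the controls against 99.4, 108 and 152 in the knockouts (3.88 ± 0.73, adjusted p = 0.0291). Both were near the filter of 10 in the controls, and each knockout was several times above every control. Slc1a4, a carrier of neutral amino acids, rose by 1.43 and Slc7a1, a second cationic carrier, by 0.62. Altogether 4 of 24 tested transporters rose, with a median of 0.12. Slc3a2, the heavy chain that pairs with Slc7a11, had 0.75 (adjusted p = 0.0809). Chac1, which breaks down glutathione, was 3.29, 4.16 and 2.94 in the controls against 67.6, 76.7 and 158 in the knockouts (4.42 ± 0.73, adjusted p = 0.0109). Chac1 and Slc7a11 were the 2 of 23 tested genes called in the list of cystine, glutathione and Nrf2 target genes, whose median was 0.01. Slc7a3 lost the call without control 2 or 3, Slc7a11 without control 1, 2 or 3 or knockout 1 or 2, Slc1a4 without control 1 or 3, and Chac1 without control 1, 2 or 3. With a term for sex in the model, 0 of the 24 transporters and 0 of the 23 genes of the glutathione list were called.

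Cytosolic tRNA synthetases, the enzymes that load amino acids onto tRNAs, had 8 of 21 tested members called higher. Of the 21, 11 had all knockouts above all controls, beside 9.61% of all genes tested, and the median was 0.51. Cars, for cysteine, had the largest change of the 8, 246, 261 and 317 in the controls against 512, 540.0 and 593 in the knockouts (1.0 ± 0.12, adjusted p = 0.0007). Lars, for leucine, followed with 739.7, 848 and 940.3 against 1359.6, 1488 and 1903 (0.90 ± 0.13, adjusted p = 0.00429). The others were Nars (0.78), Sars (0.70), Iars (0.70), Gars (0.67), Tars (0.55) and Eprs (0.51), for asparagine, serine, isoleucine, glycine, threonine, and glutamate with proline. Xpot, which exports tRNAs from the nucleus, rose by 0.69 and was on none of the lists. The 17 tested mitochondrial synthetases gave 0 calls by limma and a median of -0.04. Nars and Sars lost the call without control 1 or 2, and Tars and Eprs without control 1 or 2 or knockout 2.

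Several called genes of these lists carry a copy of TGATGNAA, the C/EBP-ATF response element to which Atf4 binds with C/EBP partners, near their start. The motif was searched on both strands, with N as any base, in RefSeq promoters (GRCm38.p6) of 250 bases before to 50 bases after each gene's start. It was present for 10 of 35 called higher genes with a promoter in the table (28.6%), for 8 of 20 in the 6 lists (40%) and 2 of 15 outside them (13.3%). For called lower genes the count was 1 of 18 (5.56%), and for all genes tested 287 of 10626 (2.7%). Of all 32817 promoters in the table, 1303 held it (3.97%). A match describes the sequence and does not show that a factor binds there. Below are stretches around it from the gene strand, with the motif, or its reverse complement, in capitals. They read 5′ to 3′ as transcribed and are shown for the called higher genes that hold the motif.
Asns, chr6:7693210-7693258, minus strand: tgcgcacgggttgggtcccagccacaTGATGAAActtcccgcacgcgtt
Chac1, chr2:119351023-119351082, plus strand: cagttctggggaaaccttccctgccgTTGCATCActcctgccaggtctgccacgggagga
Slc7a11, chr3:50443646-50443705, minus strand: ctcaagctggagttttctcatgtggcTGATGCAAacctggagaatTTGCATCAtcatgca
Trib3, chr2:152344029-152344056, minus strand: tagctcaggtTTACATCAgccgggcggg
Slc1a4, chr11:20332700-20332727, minus strand: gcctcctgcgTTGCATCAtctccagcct
Pck2, chr14:55540137-55540196, plus strand: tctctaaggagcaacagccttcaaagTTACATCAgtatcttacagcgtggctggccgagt
Gars, chr6:55037945-55038000, plus strand: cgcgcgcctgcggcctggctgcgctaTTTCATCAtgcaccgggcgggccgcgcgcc
Iars, chr13:49682127-49682154, plus strand: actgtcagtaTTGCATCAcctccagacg
Tars, chr15:11399659-11399699, minus strand: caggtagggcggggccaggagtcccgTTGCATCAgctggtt
Cyb5r2, chr7:107758004-107758031, minus strand: ctgccggatgTTTCATCAtccccaccat
Positions are counted from the RefSeq start, which for Asns, Chac1 and Trib3 differs from the end of the GENCODE gene model given below. The Asns copy reads in the sense of the gene, 23 bases before its RefSeq start. Slc7a11 has a pair of copies on opposite strands, 66 and 47 bases before its start. In the other genes the motif lies on the opposite strand, from 193 bases before the start in Chac1 to 14 bases after it in Trib3. Asns lies at chr6:7675169-7693254, Chac1 at chr2:119351229-119354381, Slc7a11 at chr3:49892526-50443614 and Trib3 at chr2:152337422-152344032 in the GENCODE annotation of the same build.

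The other 20 rises were on none of the lists. Trim66, a nuclear bromodomain protein of the TRIM family (chr7:109449006-109508134), was 0, 0 and 0.735 in the controls against 58.9, 66.3 and 156 in the knockouts. This rests on 1 read in the 3 controls and 392 reads in the knockouts, a depth-scaled ratio of 380.1 with a 95% counting interval from 67.8 to 15050 that covers counting error only. Its log2 fold change after adding 1 was 6.16 ± 0.78 (adjusted p = 0.00171). Cyb5r2, a cytochrome b5 reductase (chr7:107748455-107758032), was 4.94, 3.32 and 5.88 in the controls against 69.2, 59.7 and 73.2 in the knockouts (3.60 ± 0.70, adjusted p = 0.0343), and Cyb5r1, of the same family, rose by 0.85. Fam129a, also called Niban, rose by 1.45 and Socs2, an inhibitor of cytokine signalling, by 0.92. Smaller rises of 0.40 to 0.66 were measured for Rhbdd1, a rhomboid protease, Phf10, a chromatin remodelling subunit, Ifrd1, Gria3, a glutamate receptor subunit, Marcks, Zfp131, Zbtb41, Ro60 and Enc1. Cyb5r2 and Socs2 lost the call without control 1, 2 or 3 or knockout 1 or 2, and Cyb5r1 without control 1, 2 or 3 or knockout 2, and each of the smaller rises lost it without at least 1 library.

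Among the other rises were 3 zinc finger genes on chromosome 4, set side by side here after their values were seen, with no test of their position. Zfp979 (chr4:147611937-147642513) was 18.9, 18.3 and 61.8 in the controls against 213, 118 and 81.4 in the knockouts (2.15 ± 0.41, adjusted p = 0.0336). Zfp984 (chr4:147753974-147809788) went from 54.3, 54.9 and 77.2 to 171, 132 and 102 (1.09 ± 0.23, adjusted p = 0.0494), and Zbtb8b (chr4:129425765-129440853) from 31.3, 23.3 and 75.0 to 142, 117 and 85.8 (1.54 ± 0.32, adjusted p = 0.0494). In all 3, control 3 was the highest control and knockout 3 the lowest knockout, so that the closest libraries of the groups differed by much less than their means. In the PHT line Zfp979 changed in the other direction (-1.78, adjusted p = 0.0349) and Zfp984 was at -0.51 (adjusted p = 0.856), and without any 1 of the PHT libraries the call of Zfp979 was lost. Zfp979 and Zbtb8b lost the call without control 1 or 2 or knockout 1 or 2, and Zfp984 without control 1, 2 or 3 or knockout 1 or 2.

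**Figure D1:**
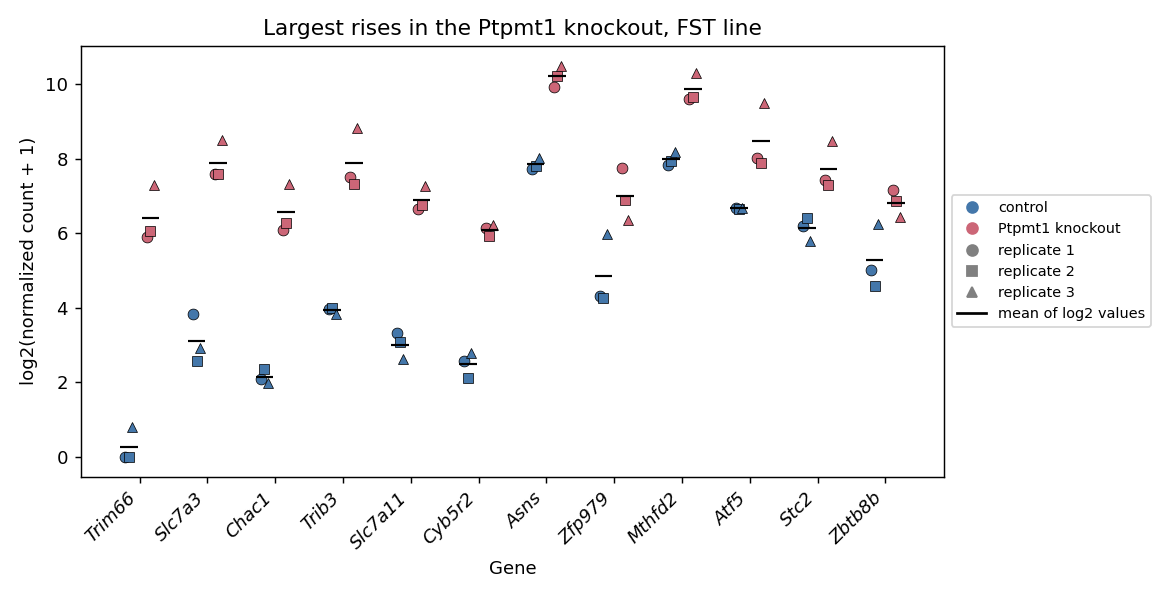
The 12 largest rises among called genes, as log2(normalized count + 1) on the vertical axis for each gene on the horizontal axis, with 1 point per library (blue, controls; red, Ptpmt1 knockouts; marker shape, replicate) and a line at each group's mean. The groups are separate for every gene, knockout 3 is the highest point for most genes, and for Zfp979 and Zbtb8b it lies close to control 3.

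The size of the response differed between the knockouts. Knockout 3 was the highest library for 24 of the 25 called genes of the 6 lists and for 11 of the other 20. Trib3, for instance, was 181, 160.1 and 457 and Atf5 260.1, 234 and 724 in knockouts 1, 2 and 3. How often knockout 3 was the highest library over all genes tested was not counted. That library also had the highest summed level of fibroblast markers (0.301% of the signal, against 0.153% and 0.15% in the other knockouts and 0.136% to 0.167% in controls). Of the fibroblast markers 11 were tested and 0 called, with a median of 0.24, and of 0.01 without knockout 3. Its macrophage markers were also highest, at 0.011% against 0.00374% to 0.00585% in the other libraries (9 tested, 0 called, median 0.53, and -0.26 without knockout 3). The part of these cells in the response was not tested. Without knockout 3, all 45 rises and all 25 falls were still called, in a fit that called 857 genes. The sizes of the changes moved. Atf5 was then at 1.28 against 1.79, and the median of the ISR factors was 0.425 against 0.68. The median of the cytosolic synthetases was 0.41 against 0.51, while medians of the serine list (0.19) and the transporters (0.15) were slightly higher than with all libraries.

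Among the 25 falls, the largest beside that of Ptpmt1 were in a metallothionein gene and a noncoding RNA. Mt2, a metallothionein (chr8:94172664-94173568), was 32.1, 41.6 and 21.3 in the controls against 5.57, 3.79 and 6.31 in the knockouts (-2.37 ± 0.37, adjusted p = 0.00688), below the filter in every knockout. Mt1, a second metallothionein, was 88.0, 84.8 and 44.8 in the controls against 31.0, 20.8 and 77.6 in the knockouts (-0.89, adjusted p = 0.361). Rmrp, the RNA of RNase MRP that processes ribosomal RNA (chr4:43492783-43493063), was 18846, 14406 and 17105 in the controls against 3974, 4132 and 11760.0 in the knockouts (-1.53 ± 0.30, adjusted p = 0.0341). Knockout 3 lay nearer to the controls than to the other knockouts for Rmrp, while for Mt2 every knockout was far below every control. In the list of nuclear-retained long noncoding RNAs, Rmrp was the 1 of 10 tested genes that was called, and the median was 0.09. Tmsb10, an actin-binding thymosin, went from 1355, 1246 and 1535 to 565, 734 and 1035 (-0.86 ± 0.18, adjusted p = 0.0483). Mt2 lost the call without control 2, and Rmrp and Tmsb10 without control 1, 2 or 3 or knockout 1 or 2.

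Genes of cell coupling and of the contractile apparatus were among the smaller falls. Gja5, the gap junction protein connexin 40 of atria and conduction system (chr3:96904693-97077416), was 1762, 1902 and 1407 in the controls against 1078, 811 and 1058 in the knockouts (-0.78 ± 0.13, adjusted p = 0.0109). It was among the 2 of 24 tested genes called in the list of calcium handling and ion channels, whose median was -0.17. Des, the muscle intermediate filament desmin, was 5627, 5896 and 6956 in the controls against 4374, 4307 and 4420.5 in the knockouts (-0.49 ± 0.09, adjusted p = 0.0165). Further muscle genes with called falls were Synpo2l (-0.58), Myo18b (-0.58), Alpk2 (-0.57), Cmya5 (-0.57), Xirp1 (-0.55), Obsl1 (-0.45) and Speg (-0.45), which encode proteins of the Z-disc, the M-band or the intercalated disc, or muscle kinases. They were grouped here after their values were seen. In the list of sarcomere genes 0 of 26 were called, although 25 of the 26 had a log2 fold change below 0. The median of the list was -0.28, and 12 had all knockouts below all controls, beside 9.48% of all genes tested. Mybpc3, the cardiac myosin-binding protein, came close (-0.46, adjusted p = 0.0567). Nppa and Nppb, the natriuretic peptides of a stressed heart, had 0.07 and 0.15 (adjusted p = 0.93 and 0.82), with the sign for Nppa turned without knockout 3 (-0.24). Mt2 and Xirp1 were the 2 of 15 called in the list of fetal and hypertrophic stress genes (median -0.03). Gja5 lost the call without control 1 or 2, Des without control 2 or 3 or knockout 1 or 2, Synpo2l, Myo18b, Obsl1 and Speg without control 1, 2 or 3 or knockout 1 or 2, and Alpk2, Cmya5 and Xirp1 without control 1, 2 or 3 or knockout 2.

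Energy metabolism contributed few calls. Atp5k, the e subunit of ATP synthase, was 296, 320.0 and 292 in the controls against 151, 208 and 186 in the knockouts (-0.74 ± 0.14, adjusted p = 0.0232), and it was the 1 of 44 tested subunits of complexes II to V that was called. The median of those subunits was -0.19, and 13 had all knockouts below all controls, beside 9.48% of all genes tested. Complex I gave 0 calls of 36 (median -0.13), the TCA cycle 0 of 29 (-0.11) and fatty acid oxidation 0 of 27 (-0.12). Hk1, a hexokinase (-0.57), and Pfkl, a phosphofructokinase (2023, 2198 and 2084 in the controls, 1523, 1090.5 and 1630.4 in the knockouts, -0.59), were the 2 of 27 called in the list of glucose uptake and glycolysis, whose median was -0.22. Transcripts encoded by mitochondrial DNA gave 0 calls of 8, with a median of 0.54 that was 0.07 without control 3, and their share of the signal was 0.675% to 1.7% in controls and 1.65% to 1.79% in knockouts. The low value belonged to control 3. Srebf2, the transcription factor of sterol synthesis, fell by 0.49 on the log2 scale. Arhgef4, a guanine nucleotide exchange factor, was 256, 294 and 214 in the controls against 189, 128 and 136 in the knockouts (-0.76, adjusted p = 0.0462). Emilin2, a glycoprotein of the extracellular matrix, was 1762, 1842 and 2131 in the controls against 1380.2, 1123 and 1179 in the knockouts (-0.64, adjusted p = 0.00429). The remaining falls were Efnb3 (-0.53), Cspg4 (-0.53), the linker histone Hist1h1e (-0.50), the collagen Col13a1 (-0.50) and Nav2 (-0.39). Atp5k lost the call without control 1, 2 or 3 or knockout 1, Hk1 without control 1, 2 or 3 or knockout 2, Pfkl without control 1, 2 or 3 or knockout 1 or 2, Srebf2 without control 1 or 2, and Arhgef4 without control 1 or 2 or knockout 2, and each of the remaining 5 lost it without at least 1 library.

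**Figure D2:**
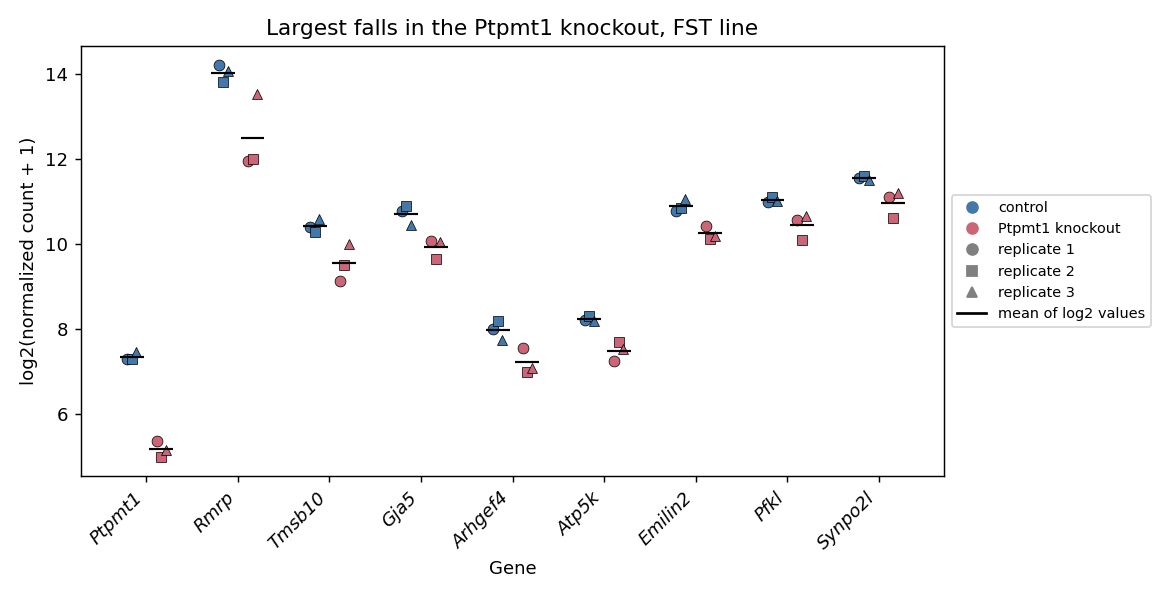
The 9 largest falls among called genes whose control mean reached 50, as log2(normalized count + 1) on the vertical axis for each gene on the horizontal axis, with 1 point per library (blue, controls; red, Ptpmt1 knockouts; marker shape, replicate) and a line at each group's mean. Ptpmt1 and Rmrp show the widest gaps between the group means, and knockout 3 of Rmrp lies nearer to the controls than the other 2 knockouts do.

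The lists for ER stress, mitochondrial chaperones, p53 targets and the other processes named here gave no call in the main fit. By limma, 0 of 22 genes of the ER stress response (median -0.09) and 0 of 21 mitochondrial chaperones and proteases (median -0.05) passed, among them Hspa9, a mitochondrial chaperone (0.37, adjusted p = 0.166). The count was also 0 of 17 p53 targets (median 0.12), 0 of 7 interferon response genes (-0.08), 0 of 17 immediate early genes (0.08), 0 of 30 cell cycle genes (-0.10) and 0 of 44 cytosolic ribosomal proteins (-0.05). Mitochondrial fusion, fission and mitophagy genes (19 tested, median -0.08) and mitochondrial solute carriers (22 tested, median -0.08) also gave 0 calls. Of the 17 p53 targets, edgeR called 1 and DESeq2 2 higher, and limma called 3 higher without knockout 3 and 0 without control 3 as well. DESeq2 called 2 of the 22 ER stress genes higher and 1 lower, beside 154 higher and 199 lower of 13896 over all genes. Over all genes, 1860 had an unadjusted p under 0.05, edgeR called 92 and DESeq2 353, so that a gene that missed the threshold here may still have changed.

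Far more genes were called when knockout 3 was left out. The number of calls was then 857 of 13896 genes tested, 417 higher and 440 lower. Without both control 3 and knockout 3 it was 688 of 13896, 282 higher and 406 lower. Of these, 526 genes were called with the same sign in both, 234 higher and 292 lower. Both fits share every library but control 3, so their agreement here and in the lists below is not independent. Sarcomere genes then had 11 of 26 lower without knockout 3, beside 440 of 13896 over all genes, and 11 without both, beside 406. Complexes II to V had 17 and 18 of 44 lower, complex I 8 and 6 of 36, glycolysis 12 and 8 of 27, and the TCA cycle 6 and 7 of 29. Without knockout 3, Tnnt2, cardiac troponin T, was at -0.52 (adjusted p = 0.00367), and Nkx2-5, a cardiac transcription factor, at -0.95 (adjusted p = 0.000378). Among respiratory subunits, Cox6a1 of complex IV was at -0.88 (adjusted p = 0.000542) and Atp5d of ATP synthase at -0.72 (adjusted p = 0.000547). Cytosolic tRNA synthetases had 12 of 21 higher in either case, beside 417 and 282 of 13896 over all genes. With all libraries limma called at most 2 members of each of these lists other than the synthetases. DESeq2 called 9 of 26 sarcomere genes, 6 of 27 of glycolysis and 4 of 44 of complexes II to V lower. Over all 13896 genes DESeq2 called 199 lower. Cardiomyocyte markers, most of which are also on the sarcomere list, gave 0 calls of 17 with all libraries by limma (median -0.28) and 6 lower by DESeq2. Without knockout 3, 8 of the 17 were called lower (median -0.38), and without control 3 as well it was 9. The part of cardiomyocyte content in these lower levels was not tested. In the same libraries, summed cardiomyocyte markers were 7.61% and 6.04% in knockouts 1 and 2, and 6.45% and 6.69% in controls 1 and 2, which overlap.

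**Figure D3:**
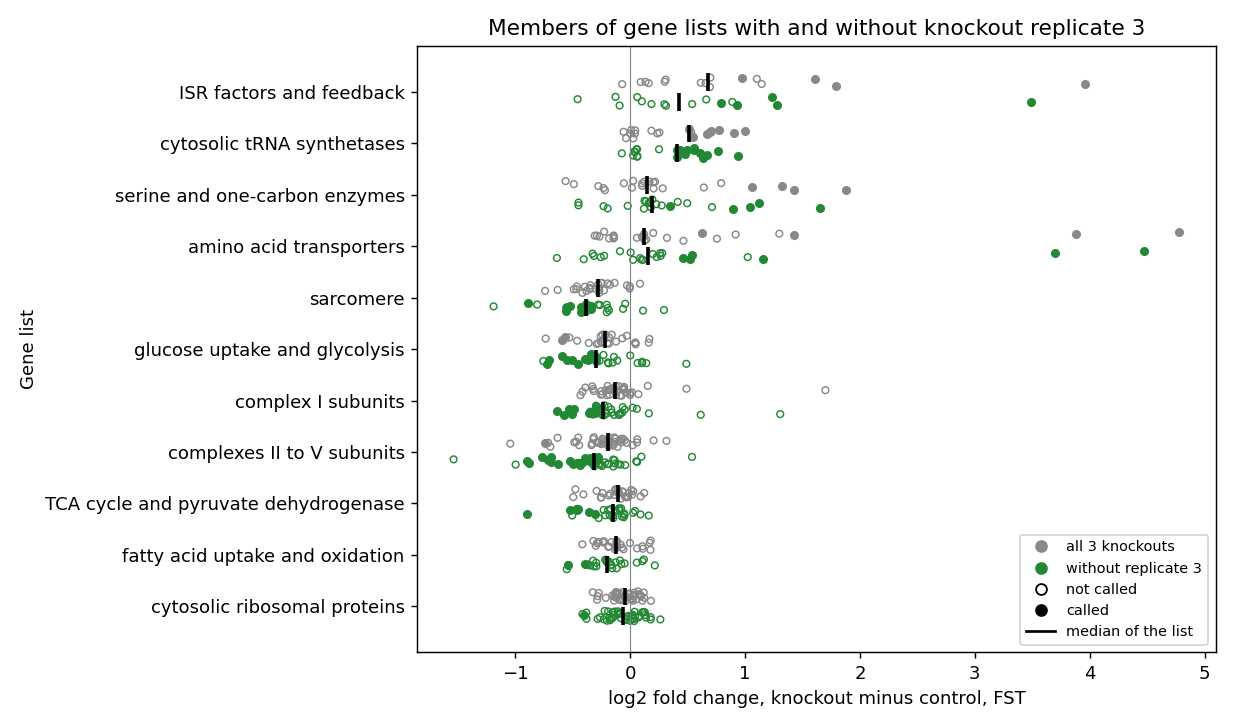
Log2 fold changes of members (horizontal axis) for 11 gene lists (vertical axis), with all 3 knockouts (grey) and without knockout replicate 3 (green); filled points were called, open points were not, and black bars are medians. Sarcomere, glycolysis and complex II to V genes sit mostly below 0 in both cases, and many become called without replicate 3.

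Red cell transcripts split the libraries across the groups. Erythroid markers summed to 0.214%, 0.281% and 0.0706% of the signal in the controls and 0.0659%, 0.0735% and 0.227% in the knockouts. Control 3 thus lay with knockouts 1 and 2, and knockout 3 with controls 1 and 2. All 12 markers tested had a log2 fold change below 0 (median -0.60) and 0 were called. Without replicate 3 of both groups 10 were called lower, beside 406 of 13896 over all genes. The embryonic globin Hba-x was 5064, 6429 and 1978 in the controls against 1446, 1576 and 3315 in the knockouts. Endothelial markers summed to 0.133% to 0.154% in controls and 0.135% to 0.153% in knockouts (12 tested, 0 called). Mural markers summed to 0.168% to 0.247% and 0.134% to 0.204% (9 tested, 1 called lower, Cspg4). Atrial markers summed to 0.386% to 0.44% and 0.341% to 0.42% (9 tested, 1 called lower, Gja5). Cardiomyocyte markers had 0 of 17 called (median -0.28), epicardial markers 0 of 8 (0.14) and Schwann markers 0 of 3 (0.08), with Foxd3 at 0. Of the adipocyte markers 1, Fabp4, could be tested (0.72, adjusted p = 0.804), and 3 were at 0 in all 6 libraries.

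Sex and genotype cannot be told apart in full, since the 2 control libraries with Xist have no counterpart among the knockouts. Xist was 21.4, 13118 and 7879.8 in the controls against 11.1, 11.4 and 6.94 in the knockouts. Of 6 sex-linked genes tested 0 were called. With a sex term in the model, 18 genes were called higher and 3 lower. These held 17 of the 45 rises and 3 of the 25 falls. The losses given per gene in the other paragraphs are for left-out libraries only. Slc7a1, Aldh18a1 and Emilin2 kept the call without any single library but lost it with the sex term. Pck2, Gars and Fam129a likewise lost it only in a fit with the 2 groups alone. Of the 70 calls, 13 held in every alternative that gave them an adjusted p. They were Atf4, Trib3, Asns, Mthfd2, Psat1, Gpt2, Cars, Iars, Lars, Xpot, Eif2s2, Trim66 and Ptpmt1. DESeq2 gave an adjusted p for 29 of the 45 rises and 23 of the 25 falls. It gave none for Trib3, Gpt2, Trim66 and Ptpmt1, so these were not judged by DESeq2.

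The same loss of Ptpmt1 was measured on the Eif2a mutant, by comparing the 3 double mutants with the 3 Eif2a mutants. Here 1 gene was called, 0.0072% of the genes tested, by limma, and it was Ptpmt1 (-1.78, adjusted p = 0.000358). The number with an unadjusted p under 0.05 was 1131, and DESeq2 called 22. Of the 45 rises, 22 had a log2 fold change above 0 on this background, and their median was -0.01 against 0.92 in the knockout without the mutation. For the 25 called genes of the 6 lists the medians were -0.02 and 1.32. Asns was 189, 279 and 240.3 in the Eif2a mutants and 300.4, 283 and 263 in the double mutants. Trib3 was 69.8, 39.1 and 45.1 in the Eif2a mutants and 33.5, 26.5 and 32.8 in the double mutants, and Mthfd2 260.1, 234 and 195 and then 235, 269.6 and 204. The groups overlapped for Asns and Mthfd2, while for Trib3 all double mutants lay below all mutants. The falls were partly shared in direction: 23 of the 25 were below 0, with a median of -0.24 against -0.57. Rmrp was 17626, 20646 and 16159 in the mutants and 11462, 7619 and 10608 in the double mutants (-0.89, adjusted p = 0.575). The double mutants included 1 library of 1887978 reads and the mutants 1 with 15157 genes detected, against 17567 to 18439 in the other 4. Double mutant 1 expressed Xist, while the other double mutants and all Eif2a mutants expressed Y-linked genes, so sex differed in part here too.

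The difference between the effects was tested as an interaction. It was called for 3 genes, 0.0216% of those tested: Trib3 (-4.63 ± 0.48, adjusted p = 0.000525), Asns (-2.09 ± 0.22, adjusted p = 0.000525) and Mthfd2 (-1.84 ± 0.25, adjusted p = 0.00835). The count of 3 moved with single libraries: it was 8 without control 3, 7 without Eif2a mutant 1, 5 without knockout 2 or double mutant 2, and 35 without knockout 3. All 45 rises had an interaction below 0, and for all 70 called genes the change was smaller in size on the Eif2a mutant. Under all 22 alternatives run for the interaction, Trib3 and Asns were called, and Mthfd2 was called in 21, with adjusted p = 0.0784 under a sex term (range -1.97 to -1.62). These genes were chosen for their change in the knockout, so a smaller value in a second comparison is a description and no test. For Trim66 the interaction had adjusted p = 0.0769, for Slc7a3 0.0769 and for Chac1 0.62. Chac1 was 0, 7.37 and 3.15 in the mutants and 6.23, 13.3 and 2.34 in the double mutants, too low and scattered to read. For Atf4, which was 723, 764 and 759 in the mutants and 773, 990.0 and 786 in the double mutants, it was 0.263.

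**Figure D4:**
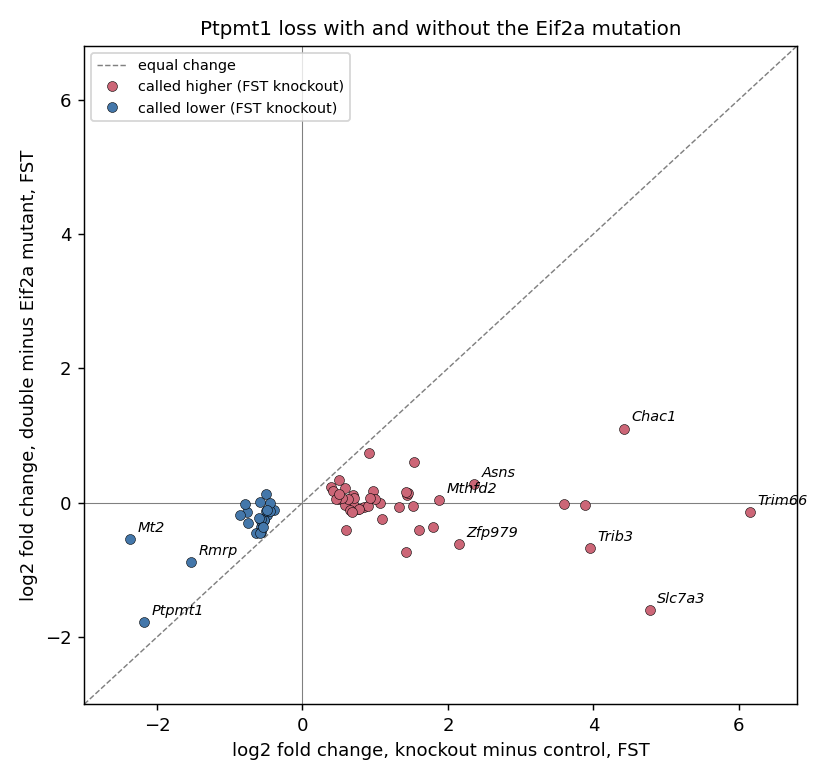
Log2 fold changes of the 70 called genes for loss of Ptpmt1 without (horizontal axis) and with (vertical axis) the Eif2a mutation; red points rose and blue points fell in the knockout, and the dashed line marks equal change. Rises spread along the horizontal axis near 0 on the vertical axis, whereas Ptpmt1 lies near the dashed line.

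In the PHT line, normalized in a table of its own, the knockout was compared with its own controls, so that its values are read side by side and share no library with those of FST. Both PHT controls and PHT knockouts 2 and 3 expressed Xist. There 42 genes were called higher (0.281% of 14965) and 3 lower (0.02%), 45 in all, and 27, 21 and 24 without control 1, control 2 or knockout 2. Of the 45 rises of the FST line, all were tested, 43 were above 0 and 28 were called higher. Asns was 292 and 319.7 in the PHT controls and 1121, 1341 and 1638 in the PHT knockouts (2.14, adjusted p = 3.1e-05). Trib3 was 40.5 and 17.9 in the controls against 253, 332 and 437 in the knockouts (3.57, adjusted p = 0.000669), and Trim66 0 and 2.39 in the controls against 92.2, 105 and 110.0 in the knockouts (5.81, adjusted p = 8.89e-05). The groups were separate for all 3 genes, and Trib3 lost the call without PHT control 2. Ddit3 (1.34, adjusted p = 0.00907) and Atf3 (0.85, adjusted p = 0.0248), which were not called in FST, were called higher in PHT, Ddit3 not without control 2 or knockout 2 and Atf3 not without control 1 or 2 or knockout 2 or 3. In PHT, 6 of 16 ISR factors and 7 of 21 cytosolic synthetases were called higher. The 16 rises that were not called there held Zbtb8b (0.50), Gria3 (0.00), Zfp131 (0.14), Zbtb41 (0.12), Enc1 (0.10) and Marcks (0.11), all on none of the lists, and Slc1a4 (0.95), Tars (0.39) and Eprs (0.30) of the lists. Of the 25 falls, all were tested in PHT, 23 were below 0 and 1, Ptpmt1 (-2.44, adjusted p = 6.17e-05), was called. Mt2 was 52.8 and 85.9 in the PHT controls and 107, 115 and 15 in the PHT knockouts (-0.22), and Rmrp 11604 and 10165 in the controls against 15983, 15224 and 16332 in the knockouts (0.54). Sarcomere genes had a median of -0.04 there, and complexes II to V of 0.04, with 0 called lower by limma in either list. Whether the lines differ in these genes was not tested.

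**Figure D5:**
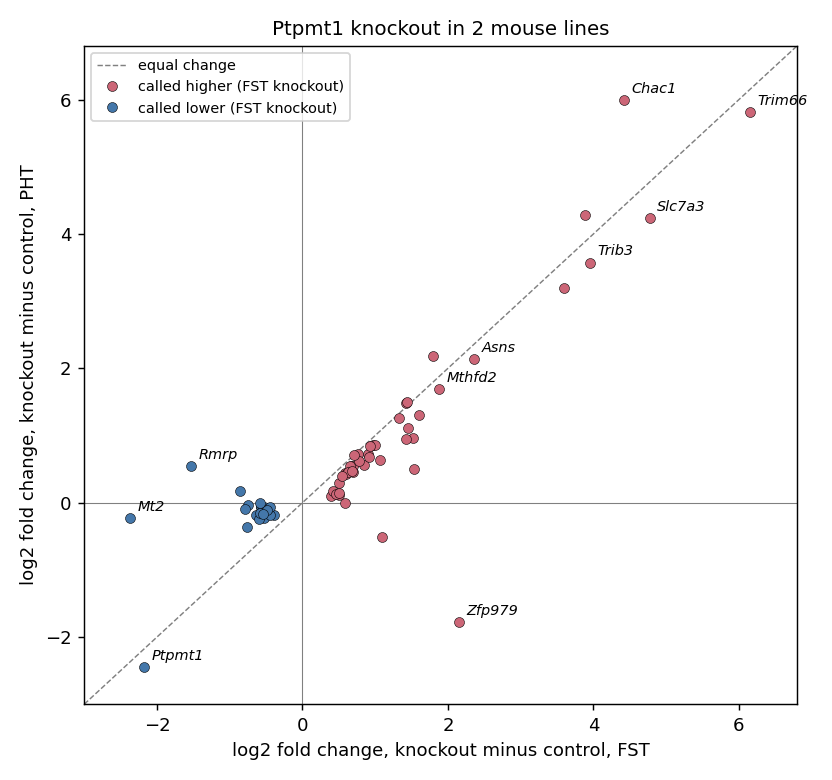
Log2 fold changes of the 70 called genes for the Ptpmt1 knockout in the FST line (horizontal axis) and in the PHT line (vertical axis); red points rose and blue points fell in FST, and the dashed line marks equal change. Most rises lie along the dashed line, Zfp979 lies below 0 in PHT, and among the falls Ptpmt1 lies near the dashed line while Mt2 and Rmrp do not.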

How the data were processed

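RNA of mouse cardiomyocytes was sequenced after removal of ribosomal RNA with a KAPA kit, per the labels' protocols. The values deposited by the authors are a normalized signal per gene and library, in 1 table per mouse line, and all columns matched a sample by title (0 did not). STAR 2.5.3a and DESeq2 1.12.4 with mm10 are named in the submitters' processing notes, without their roles. How reads were counted, on which annotation and with which strand setting is not given in the sources used here. In each column the deposited signal values were whole multiples of 1 step, and dividing by it gave whole reads (tolerance 0.1) for 100% of values. The table lists 32245 genes by symbol, of which 26 symbols had become dates and 2 were duplicated. Coordinates are GENCODE M21 (31398 of 32243 symbols matched) and promoters RefSeq GRCm38.p6.

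Genes were tested with limma 3.58.1 (R 4.3.3, trended prior) on log2(value + 1), in 1 fit with all 12 FST libraries. Tests were two-sided, p-values were adjusted by Benjamini-Hochberg across every gene tested, and 0.05 was the threshold. Genes entered the test with a value of 10 or more in at least 3 FST libraries (2 for PHT). The log2(value + 1) scale understates changes of low genes. The fit was also run on simulated data in which no library stood apart and sex did not differ, unlike in these libraries. That run does not cover either feature. Groups come from titles, and replicate numbers follow the order of the samples. Sex was read from Xist and Y-linked genes. The comparison and the gene lists were chosen with earlier results of these data known. The naming rule took the targeted genes, panel genes of the ISR and of cardiac stress, every called gene, members of the lists, and, with values per library, the 12 largest rises and 10 largest falls that were called and had a group mean of 50 or more. Of these, 1 fall is not reported here. Values per library of Des, Lars, Cars, Eif2s2, Mt1, Mt2, Hba-x and Lars2 were added after their values were seen.

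Alternatives were another pseudocount, another filter or none, a fit with the groups of the contrast alone, edgeR 4.0.16 and DESeq2 1.42.0 on recovered reads, TMM scaling, a sex term, and leaving out libraries. DESeq2 gave no adjusted p for part of the genes, and these were counted as not called. The PTGC line and the line with the Ptpmt1 knockout alone were not used here.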

Additional observations from a re-analysis of the deposited data

Results flagged for a closer look

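Loss of Ptpmt1 had a different effect without and with the Eif2a mutation for 3 genes, by the interaction term of limma over 12 libraries with Benjamini-Hochberg adjustment. For Trib3 the interaction was -4.63 on the log2 scale, with the knockouts above all controls and the double mutants below all Eif2a mutants. For Asns it was -2.09, and for Mthfd2 -1.84. The Trib3 mean was also higher in the Eif2a mutants than in the controls, which enters this difference.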

How the results depend on the processing

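For the knockout against control, the count of 70 called genes (45 higher, 25 lower) became 27 in a fit with these 2 groups alone, 21 with a sex term, 353 with DESeq2 (154 higher, 199 lower) and 688 without replicate 3 of both groups, and it ranged from 21 to 857 when 1 library was left out. Other settings gave 48 to 92. For the double mutant against the Eif2a mutant, the count of 1 became 22 with DESeq2 and 5 without replicate 3 of both the control and the knockout, and was 1 without any single library of that contrast. For the interaction, the count of 3 became 6 with a pseudocount of 4 or with no filter, 5 with edgeR, 32 with DESeq2, 9 without the 2 shallow or low-gene libraries and 72 without replicate 3 of control and knockout, and ranged from 3 to 35 when 1 library was left out. A fit with fewer groups could not be run for it, since it needs all 4. In PHT the count of 45 became 69 with DESeq2 and ranged from 21 to 42 when 1 library was left out. The cause of these changes was not tested. Of the 70 called genes, 13 held in all alternatives with an adjusted p, 57 lost the call in at least 1, and 0 changed direction. Among uncalled genes, Atf3 turned to -0.13 without control 3, -0.09 without knockout 3 and -0.31 without both (0.22 at most when 1 library was left out), Nppa to -0.24 without knockout 3 and -0.30 without both (0.25 at most), and Nppb to -0.044 without both. No paired analysis was possible because the labels give each library a number of its own and none is shared between groups. Depth, 8331543 to 12583868 reads in genes, limits genes such as Gdf15, Chac1 and Mt2.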

Other observations

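A few further list members were called when knockout 3 was left out. Lars2, the mitochondrial leucyl tRNA synthetase, had control values of 553, 407 and 405, and 2756, 1704 and 398 were measured in the knockouts. Its log2 fold change was 1.45 (limma, adjusted p = 0.203) and 2.26 without knockout 3 (adjusted p = 0.000547). The ferritin chains Fth1 and Ftl1, which store iron, were at -0.65 and -0.28 with all libraries (adjusted p = 0.193 and 0.309), and at -0.99 and -0.45 without knockout 3 (adjusted p = 0.000964 and 0.00417).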
